A study of Rattus norvegicus with 4 samples.

Results

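Ribosome biogenesis genes encode the nucleolar machinery that transcribes, cuts, modifies and folds ribosomal RNA before mature subunits leave the nucleus. A list of 43 such genes was followed in ROE2, an established line of oral epithelial cells taken from fetal tongue. The donor was a transgenic Wistar rat with a heat-sensitive form of the SV40 large T-antigen, which keeps cells dividing in the cool and is inactivated by warming. Of the 43, 42 had a probe set annotated to that gene alone, and 41 reached a log2 value of 6 on at least 1 array, out of 14218 and 8802 genes on the array as a whole. Npm1, the nucleolar chaperone nucleophosmin, had 3 probe sets that are all shared with a pseudogene, so no value is given for it. Noc3l, a large subunit assembly factor, had 4.74, 4.48, 3.92 and 4.34 on days 0, 3, 6 and 9. It did not reach the limit and stands outside all counts below, and its values on days 6 and 9 were not above the brightest of 27 bacterial control probe sets.

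The cells were plated at 33 °C, moved after 24 h to 37 °C and harvested after 0, 3, 6 or 9 days, day 0 being the starting point. All 4 groups shared the line, the collagen I coating and a medium with low serum, insulin, transferrin, ethanolamine, selenite and epidermal growth factor. Each day was measured on 1 Affymetrix rat array, as a log2 value made by robust multi-array averaging (RMA). There were no replicates, so the values carry no replicate error and no p-value, and day, culture and array cannot be told apart. Day 0 alone came before any days at 37 °C. In each difference from day 0, the temperature and the state of the T-antigen thus cannot be told apart from day either. The stated purpose of the series was to find genes that act in the differentiation of these cells, and it used a single line.

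In eukaryotes RNA polymerase I transcribes one long precursor that holds the rRNA of both subunits, except the smallest rRNA of the large one. Small nucleolar ribonucleoproteins (snoRNPs) of the box C/D kind methylate it and those of the box H/ACA kind turn uridines into pseudouridines. A large assembly called the small subunit processome and a separate set of pre-large-subunit factors then cut and fold the precursors of both subunits. MYC is a transcription factor known to raise many of these genes in growing cells, through the E-box sequence CACGTG among other sites.

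The E-box was looked for because MYC is on the list and because the promoter letters are independent of the expression values. RefSeq promoter windows of build GRCr8, 250 bases before to 50 after an annotated start, were found for 39 of the 43 genes, in 41 windows. CACGTG, which reads the same on both strands, lay in 14 of the 41 windows (34.1%), against 816 of 8192 windows of measured genes (9.96%) and 6.42% of all 33469 windows in the table. Of the 7318 windows of other measured genes whose CpG count lay in the members' range, 10.0% held it. That range was wide, 2 to 38, and took in most windows of measured genes. The 10.0% could thus hardly differ from the 9.96%, and it is not a comparison matched for CpG content. The related sequence CACGCG, or CGCGTG on the other strand, lay in 31.7% of the members' windows and 18.1% of those of measured genes. Neither spelling can overlap CACGTG. In 6 of the 14 genes the E-box began before the annotated start and in 8 after it. A match is a description of the letters and not a binding site. The 3 stretches of 60 bases upstream of the start and outside the annotated gene that follow show one factor each of the small subunit, the large subunit and the snoRNPs, with the E-box in capitals:
Wdr75, chr9:55395045-55395104, plus strand: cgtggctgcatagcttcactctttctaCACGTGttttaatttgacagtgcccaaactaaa
Pes1, chr14:83074269-83074328, plus strand: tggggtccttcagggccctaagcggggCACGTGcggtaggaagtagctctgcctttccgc
Dkc1, chrX:157751440-157751499, plus strand: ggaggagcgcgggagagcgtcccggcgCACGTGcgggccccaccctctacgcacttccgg
In Pes1 the motif began 50 bases upstream of the start, in Wdr75 160 and in Dkc1 184.

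All 41 measured ribosome biogenesis genes were below their day 0 value on day 3, on day 6 and on day 9. The shares of all measured genes below day 0 were 55.8%, 62.7% and 61.0%, and 44.3% were below it on all 3 days. The 3 differences share the day 0 array, so they are not separate observations of the direction. The step from day 3 to day 6 does not use that array, and there too all 41 members were lower on day 6 than on day 3, against 65.9% of all measured genes. With arrays centred on the median gene 34 of 41 were, against 48.6% of all measured genes. Of 12 further probe sets of 9 members, however, 7 were higher on day 6 than on day 3, with a median of 0.25 over the 12, so this step did not have 1 direction in every probe set of these genes. Among the 7 was 1 dim probe set of Nolc1 that was not above the brightest bacterial control on any array. At 1.5-fold 5 of the 41 members were lower in that step, against 9.15% of all measured genes. Day 9 against day 3 does not use the day 0 array either. There 27 of 41 members were lower on day 9, against 57.5% of all measured genes. The members' median was -0.12, near the -0.07 of all measured genes. The members' median difference from day 0 was -0.47 on day 3, -0.88 on day 6 and -0.59 on day 9 on the log2 scale, against -0.05, -0.18 and -0.14 over all measured genes. In the 6748 measured genes whose mean level lay in the same range as the members' the medians were -0.05, -0.17 and -0.13. The direction for the 41 on all 3 days also held with the arrays centred on the median gene, on the hybridisation spike-ins or normalized once more by quantiles. When all probe sets of a gene were averaged Ddx18 was at 0.10 on day 9 and the other 40 stayed below 0.

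**Figure D1:**
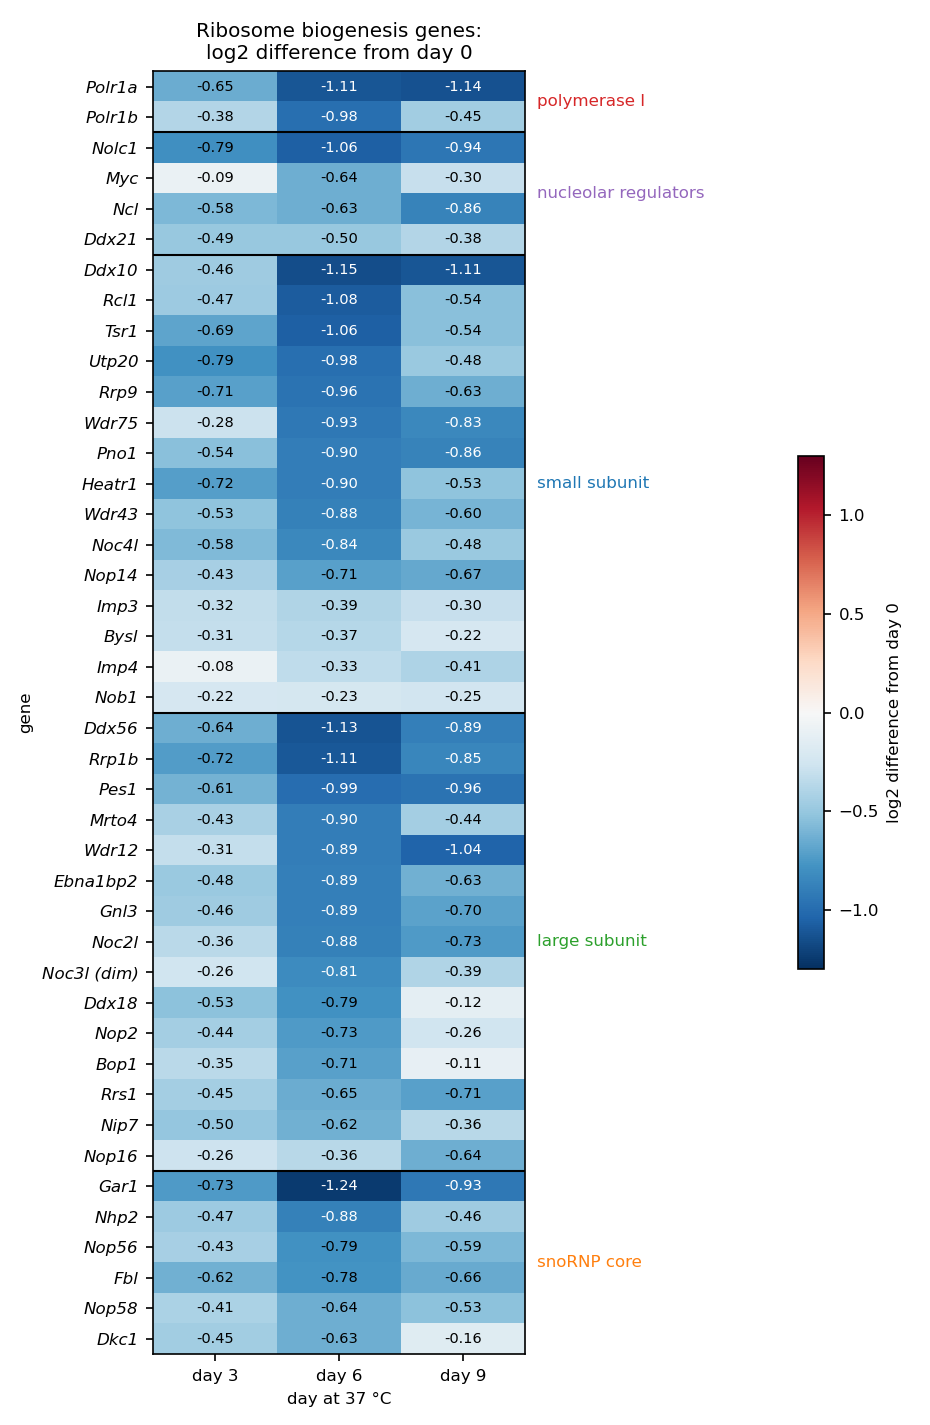
Log2 difference from day 0 on days 3, 6 and 9 (columns) for the 42 ribosome biogenesis genes with a probe set (rows, ordered by the day 6 difference within each step). Every cell is below 0, and the darkest column in most rows is day 6, where Gar1 stands at -1.24.

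The differences were modest in size. A gene counts here as lower at 2-fold or more, a difference of -1 on the log2 scale, and in a second count at 1.5-fold or more. At 2-fold, 0 of 41 members were lower on day 3, 8 on day 6 and 3 on day 9, where the shares of all measured genes were 2.15%, 8.08% and 6.25%. At 2-fold the members' counts on days 3 and 9 thus lay near or below the background. At 1.5-fold, 11 of 41 were lower on day 3, 35 on day 6 and 21 on day 9, against 10.0%, 22.9% and 19.6% of all measured genes. On all 3 days, 8 members were 1.5-fold or more lower, namely Polr1a, Nolc1, Rrp9, Pes1, Ddx56, Rrp1b, Fbl and Gar1, against 6.82% of all measured genes. The 8 genes past 2-fold on day 6 were Gar1, Ddx10, Ddx56, Polr1a, Rrp1b, Rcl1, Tsr1 and Nolc1, and the 3 on day 9 were Polr1a, Ddx10 and Wdr12. With each array centred on the median gene only 1 member, Gar1, passed 2-fold on day 6, and centring on the spike-ins put 35 past it on day 6 and 32 on day 9. These scalings moved the median of all measured genes to -0.03, -0.02 and -0.03 and to -0.19, -0.57 and -0.77 on days 3, 6 and 9.

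Fewer cells that express these genes and less RNA per cell cannot be told apart in this bulk RNA. RMA includes quantile normalization, so each value is a level relative to the rest of the array. The 18 hybridisation spike-in probe sets were above day 0 by a median of 0.14, 0.39 and 0.63 on days 3, 6 and 9. Of 10 epithelial markers 9 were measured, Krt14 being the brightest at 14.0 to 14.2. Krt13, a keratin of the suprabasal layers of oral epithelium, had 9.68, 12.23, 13.55 and 13.91 on days 0, 3, 6 and 9. The basal keratin gene Krt15 had 9.11, 11.06, 12.23 and 11.78. Krt13 and Krt15 were above day 0 on all 3 days, where the members were below it. From day 6 to day 9 Krt13 was higher, as most members were, and Krt15 lower. Krt5 and Itga6 were below day 0 on all 3 days, as the members were, at -0.28 and -0.44 on day 9. Of the 9 measured epithelial markers, 6 were above day 0 on day 9 and 3 below, where 61.0% of all measured genes were below. Of the markers of other cells with a probe set, 0 of 9 fibroblast, 0 of 4 endothelial and 0 of 6 muscle genes reached 6 on any array. Of 5 leukocyte markers only Cd14 and Cd68 did. Cd14 had 10.66, 9.68, 9.18 and 8.80 on days 0, 3, 6 and 9, and Cd68 had 5.32, 6.54, 6.27 and 6.18. Ptprc, the pan-leukocyte gene, stayed between 2.79 and 2.93. The beta-actin control read 3' above 5' by 2.25, 2.44, 1.22 and 2.35 on days 0, 3, 6 and 9, so the day 6 array stood apart in this measure of transcript ends, while the Gapdh control lay between -0.02 and 0.18 on all 4. Day 6 is also the day of the lowest member values. The part of these epithelial and leukocyte marker genes, of the spike-ins and of the day 6 beta-actin value in the results was not tested.

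Polymerase I itself was represented by its 2 largest subunits, which together form the catalytic centre. Polr1a, the largest, had log2 values of 7.78, 7.13, 6.67 and 6.64 on days 0, 3, 6 and 9. It was 2.15-fold lower on day 6 and 2.20-fold lower on day 9 than on day 0, the lowest day 9 difference of all members. Polr1b, its partner, had 8.34, 7.95, 7.36 and 7.89. Both subunits were thus about equally low on day 6, at -1.11 and -0.98 relative to day 0, and parted on day 9, at -1.14 and -0.45. Polr1a stayed at its day 6 level, while Polr1b was 0.53 higher on day 9 than on day 6.

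Of 13 other genes of the polymerase I machinery, 11 were measured. Below day 0 were 10 on day 6 and 10 on day 9, against 62.7% and 61.0% of all measured genes. On day 6, 2 were 2-fold or more lower and 0 higher, where 8.08% of all measured genes were lower and 505 of 8802 higher. Polr1e, a smaller polymerase I subunit, had 8.37, 7.54, 7.08 and 7.36. Rrn3, the factor that makes the polymerase competent to initiate, had 10.12, 9.97, 9.63 and 9.88. Ubtf, which encodes the architectural factor bound along active rRNA genes, had 8.61, 8.35, 8.35 and 8.72, and was the highest of the list on day 9 at 0.12 above day 0. The list median was -0.31, -0.50 and -0.36 on days 3, 6 and 9.

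In the probe sets used, the abundant nucleolar regulators did not move as one. Ncl, the RNA-binding protein nucleolin and the brightest member, had 12.81, 12.22, 12.18 and 11.94. Most of its difference was present on day 3, and it was lowest on day 9. Nolc1, a chaperone that carries snoRNPs through the nucleolus, had 10.80, 10.01, 9.75 and 9.86. Its day 3 difference was -0.79, next to -0.79 for Utp20, in the probe sets used. The other probe sets of Nolc1 above the limit were at -1.18 and 0.35 on day 6. Ddx21, an RNA helicase that couples polymerase I output to rRNA processing in human cells, had 11.60, 11.11, 11.11 and 11.22. In this probe set it stood at nearly 1 level after day 0. Its other probe set was at -0.50, -0.27 and -0.73 relative to day 0 on days 3, 6 and 9.

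Myc had 10.94, 10.85, 10.30 and 10.64 on days 0, 3, 6 and 9. On day 3 it differed from day 0 by -0.09, less than all but 1 of the other members, and apart from Imp4 each of the others was at -0.22 or lower. On day 6 it was at -0.64 and on day 9 at -0.30. Most genes of its network ran differently. Mxd1, which encodes a MAX partner that opposes MYC, had 9.22, 9.85, 10.51 and 11.22, and was 2.00 above day 0 on day 9. Max, the shared partner, had 10.63, 10.95, 11.05 and 11.23. Of the 8 measured genes of the MYC network list, 6 were above day 0 on day 9, with a median of 0.55. With arrays centred on the spike-ins that median was -0.08 and 2 were above, so the direction of the list depended on the scaling.

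The small subunit group held 15 members, all measured, with a median of -0.47, -0.90 and -0.54 on days 3, 6 and 9. At 1.5-fold, 4, 11 and 6 of the 15 were lower, against 10.0%, 22.9% and 19.6% of all measured genes. The first of its blocks to join the nascent transcript in yeast is named UTP-A, and 3 of its members were on the list. Wdr43 had 8.98, 8.45, 8.10 and 8.38. Wdr75 had 8.81, 8.53, 7.88 and 7.97. Heatr1 had 8.29, 7.57, 7.39 and 7.76. On day 6 they stood at -0.88, -0.93 and -0.90, although on day 3 Heatr1 was at -0.72 and Wdr75 at -0.28. The other probe set of Wdr75 was at 0.07 on day 6 and that of Wdr43 at -1.11.

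The processome scaffold gene Utp20 had 8.27, 7.49, 7.29 and 7.79, and was thus 0.50 higher on day 9 than on day 6. Rrp9, a protein specific to the U3 snoRNP that guides the early cleavages, had 8.34, 7.64, 7.38 and 7.71. The partners Nop14 and Noc4l, which bind each other in yeast, were at -0.71 and -0.84 on day 6 and at -0.67 and -0.48 on day 9. Imp3 and Imp4, both parts of the U3-bound MPP10 complex, had small differences in the probe sets used. Imp3 had 9.81, 9.49, 9.42 and 9.51, and Imp4 had 9.71, 9.62, 9.38 and 9.30. The other probe set of Imp4 was at -0.89 on day 6 and -0.69 on day 9, against -0.33 and -0.41 in the one used.

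Of the enzymes and cleavage factors, Ddx10, an RNA helicase, had 9.14, 8.68, 7.99 and 8.03. It was 2.22-fold lower on day 6 and 2.16-fold lower on day 9 than on day 0, the second-lowest member on both days. Rcl1, needed for early cleavage in yeast, had 9.20, 8.73, 8.12 and 8.66. Its day 6 difference from day 0, -1.08, was near that of Ddx10, while on day 9 it was at -0.54 and Ddx10 at -1.11.

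The factors of late small subunit maturation differed widely among themselves. Tsr1 had 10.10, 9.41, 9.03 and 9.55, and Pno1 had 10.15, 9.61, 9.25 and 9.29. These 2 genes of the pre-small-subunit particle were at -1.06 and -0.90 on day 6. Bysl, another factor of that particle, was at -0.37 on day 6, and Nob1, the endonuclease that makes the last cut of the small subunit rRNA and that Pno1 holds in place, had 8.95, 8.73, 8.71 and 8.69. Nob1 was the least changed member on day 6, at -0.23, where 46.0% of all measured genes were lower.

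**Figure D2:**
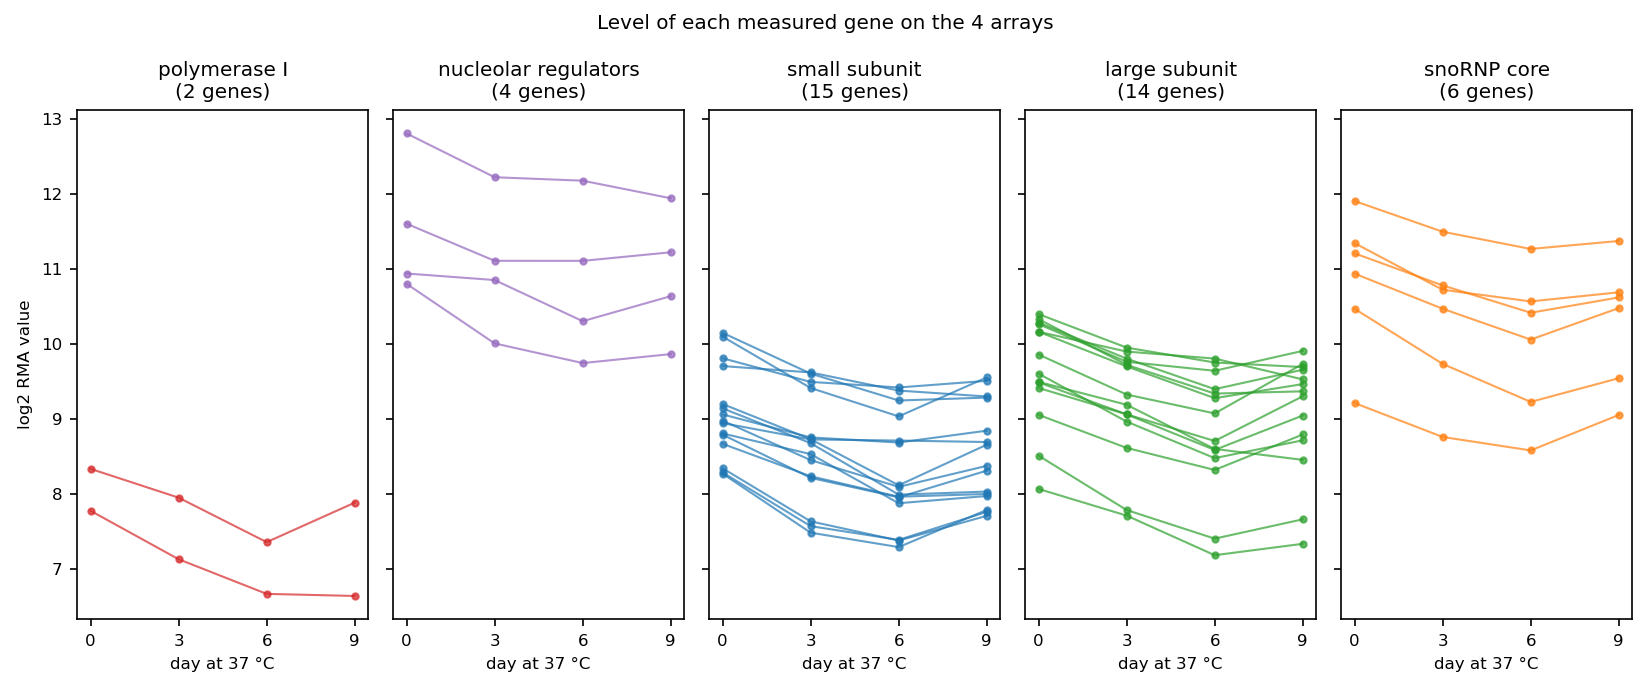
Log2 RMA value (vertical axis) of each of the 41 measured genes on days 0, 3, 6 and 9 (horizontal axis), 1 line per gene and 1 panel per step. Lines run downward to day 6 in all panels, and most turn upward to day 9, 34 as plotted but 19 once arrays were centred on the spike-ins. Ncl, the top line of the second panel, does not.

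The large subunit group had 14 measured members of 15, with a median of -0.45, -0.88 and -0.67. At 1.5-fold, 3, 13 and 9 of them were lower on days 3, 6 and 9, beside the same 10.0%, 22.9% and 19.6% of all measured genes. Pes1, Bop1 and Wdr12 encode the 3 proteins of the PeBoW complex, which processes the precursor of the large subunit rRNA in mammalian cells. Pes1 had 10.33, 9.72, 9.34 and 9.37. Wdr12 had 9.50, 9.19, 8.60 and 8.46. Bop1 had 9.41, 9.06, 8.71 and 9.30. On day 6 the 3 lay between -0.99 and -0.71. On day 9 Pes1 and Wdr12 were at -0.96 and -1.04 and Bop1 at -0.11, so the transcripts of this complex were furthest apart on the last day. Each of the 3 has a single probe set, so no second measurement of that gap was to be had.

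Other large subunit factors also differed in how low they were on day 9. The RNA helicase gene Ddx18 had 9.86, 9.33, 9.07 and 9.73, and was 0.66 higher on day 9 than on day 6, the largest such difference among the members. Nop2, a methyltransferase of the large subunit rRNA, had 9.06, 8.61, 8.32 and 8.79. Ddx56, another helicase gene, had 9.60, 8.97, 8.48 and 8.72, and Rrp1b had 8.51, 7.79, 7.41 and 7.66. These last 2 were 2.18-fold and 2.15-fold lower on day 6 than on day 0 and kept most of that difference on day 9, at -0.89 and -0.85. The 2 other probe sets of Rrp1b were at -0.27 and -0.69 on day 6. Gnl3, the GTPase nucleostemin found in proliferating and stem cells, had 10.16, 9.70, 9.28 and 9.46.

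Nop16 ran against the pattern, with 10.16, 9.90, 9.80 and 9.53 and its lowest value on day 9. Rrs1, which helps to bring the smallest rRNA into the large subunit, also was lowest on day 9, at 10.40, 9.95, 9.75 and 9.69. The stalk assembly gene Mrto4 and the assembly genes Ebna1bp2, Noc2l and Nip7 lay between -0.90 and -0.62 on day 6 and between -0.73 and -0.36 on day 9.

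All 6 snoRNP core genes were lower by 1.5-fold or more on day 6, against 22.9% of all measured genes, and the group median was -0.46, -0.78 and -0.56 on days 3, 6 and 9. Nop58 and Dkc1 did not pass that size after centring on the median gene, at -0.48 and -0.47, nor did Nop56 with its probe sets averaged, at -0.39. In the box C/D core, Fbl, the methyltransferase fibrillarin, had 11.34, 10.72, 10.57 and 10.69. Nop56 had 11.21, 10.78, 10.42 and 10.62, and Nop58 had 11.90, 11.50, 11.27 and 11.37. These 3 lay between -0.79 and -0.64 on day 6 and between -0.66 and -0.53 on day 9, but the other probe set of Nop56 was at 0.02 on day 6.

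In the box H/ACA core, Gar1 had 10.47, 9.73, 9.23 and 9.54, and was 2.36-fold lower on day 6 than on day 0, the lowest of all members. Nhp2 had 10.94, 10.47, 10.06 and 10.48. Dkc1, the pseudouridine synthase dyskerin, had 9.21, 8.76, 8.58 and 9.05. On day 9 Gar1 was at -0.93, Nhp2 at -0.46 and Dkc1 at -0.16.

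Between day 6 and day 9, 34 of the 41 members were higher on day 9, with a median of 0.20, against 57.8% of all measured genes and a median of 0.05. The other 7 were Imp4, Ncl, Nob1, Nop16, Polr1a, Rrs1 and Wdr12, each lowest on day 9. The direction of this step depended on the scaling, which shifts all genes of an array alike. Centred on the median gene, 30 of 41 members (73.2%) were higher on day 9, against 49.8% of all measured genes. Centred on the spike-ins, 19 (46.3%) were, with a median of -0.041, against 21.8% of all measured genes. At 1.5-fold 2 members were higher, Ddx18 and Bop1, against 2.66% of all measured genes. The day 6 array enters both this step and the difference of day 6 from day 0. Of the 41, 34 were lowest on day 6 and 7 on day 9, against 34.7% and 25.4% of all measured genes. Among 3650 other measured genes whose day 6 difference lay in the members' range, between -1.24 and -0.23, 68.5% were higher on day 9 than on day 6, with a median of 0.11. These genes shared the range but not the depth. Their median day 6 difference was -0.55, against -0.88 for the members, so this was not a matched comparison.

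**Figure D3:**
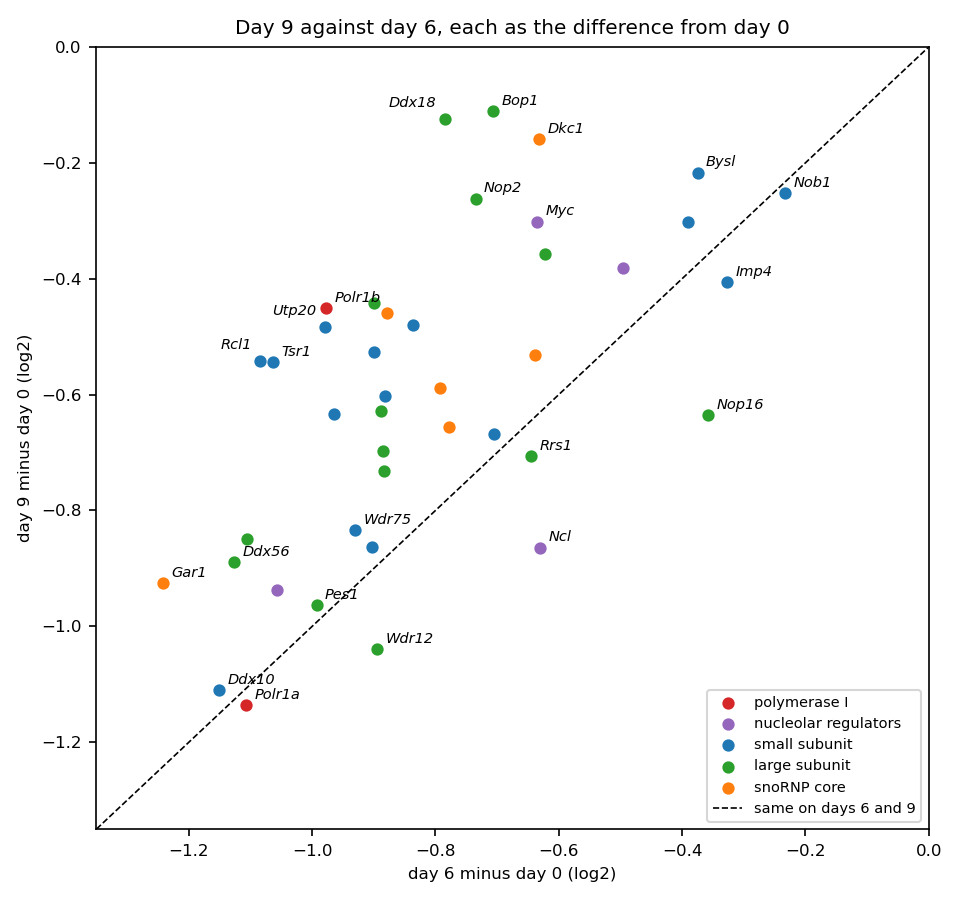
Log2 difference from day 0 on day 9 (vertical axis) against that on day 6 (horizontal axis) for the 41 measured genes, coloured by step. Points above the dashed line were higher on day 9 than on day 6, 34 as plotted but 19 after centring on the spike-ins. Bop1, Ddx18 and Dkc1 lie nearest to 0 on day 9, and Polr1a, Ddx10 and Wdr12 furthest below it.

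Within the members, those with CACGTG in a promoter window and those without differed little in level change. The 13 measured genes with it had a median of -0.48, -0.89 and -0.54 on days 3, 6 and 9, and the 24 without it had -0.47, -0.88 and -0.61. On day 6 the 13 ranged between -1.08 and -0.37 and the 24 between -1.24 and -0.23, so the ranges overlapped almost entirely. Of the 3 genes whose sequences are shown above, Wdr75, Pes1 and Dkc1, the first 2 were at -0.83 and -0.96 on day 9 and Dkc1 at -0.16.

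The 12 further probe sets of 9 members had a smaller median difference on day 6. All 12 were below day 0 on day 3, and 9 were on day 6 and on day 9. The median of the 12 was -0.52, -0.31 and -0.51 on days 3, 6 and 9, against -0.47, -0.88 and -0.59 for the 41 members. These counts and medians include 1 dim Nolc1 probe set, at 2.56 to 2.93, which was not above the brightest bacterial control on any array. The other probe set of Wdr43 was at -1.86 on day 9, against -0.60 in the one used. The 2 other probe sets of Nolc1 above the limit were at -1.71 and 0.49, against -0.94. Wdr75 was at 0.10 and Ddx18 at 0.32 in their other probe sets, and the second probe set of Mrto4 was at -1.01 against -0.44. Over the 11 of these probe sets at or above the limit the median distance from the probe set used was 0.15 on day 3, 0.52 on day 6 and 0.56 on day 9. Members that differ by less than this on days 6 and 9 have no settled order.

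Other factors of the pathway were also mostly below day 0. Of 105 other factors of polymerase I, the small subunit, the large subunit and the snoRNPs, 98 were measured, with a median of -0.39, -0.68 and -0.55 on days 3, 6 and 9. Below day 0 were 89, 95 and 93 of them, against 55.8%, 62.7% and 61.0% of all measured genes. At 2-fold, 1, 18 and 4 of the 98 were lower and 0 were higher, where 2.15%, 8.08% and 6.25% of all measured genes were lower, so on days 3 and 9 the share was below that of all genes. Rrp12, which encodes an export factor of both subunits in yeast, had 8.22, 7.31, 6.50 and 7.10, lower on day 6 than any member relative to day 0, at -1.72. The large subunit factor genes Rrp15 and Ddx51, a helicase gene, were at -1.48 and -1.62 on day 6 and at -1.09 and -1.04 on day 9. Pak1ip1, Wdr46 and the snoRNP assembly gene Nufip1 lay between -1.15 and -1.11 on day 6.

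The RNA exosome, which trims the ends of rRNA precursors, had 11 measured genes with a median of -0.20, -0.56 and -0.53. Its subunit gene Exosc1 had 9.46, 9.23, 8.66 and 8.30, and Exosc5 had 8.09, 7.47, 6.88 and 7.09. Polymerase III, which transcribes the smallest rRNA and the transfer RNAs, had 9 measured subunit genes with a median of -0.33, -0.47 and -0.29. Of the 9, 7 were below day 0 on day 9, against 61.0% of all measured genes.

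The genes of the cytosolic ribosomal proteins, the products that these factors assemble, had other values. Their 41 measured genes had a median of 0.00, -0.08 and -0.09 on days 3, 6 and 9, against -0.47, -0.88 and -0.59 for the biogenesis genes, and near the median of all genes. On day 6, 1 of 41 was 1.5-fold or more lower, against 35 of 41 biogenesis genes and 22.9% of all measured genes. That gene, Rps13, was also the lowest on day 9, at -0.98, and Rpl23a the highest, at 0.11. The probe set of Rps13 was dim, however, with 6.23, 5.56, 5.12 and 5.24 on days 0, 3, 6 and 9. It reached the limit of 6 on day 0 only, so its difference is weak evidence about this transcript. The sign of the ribosomal protein median depended on the scaling, at 0.08 on day 6 after centring on the median gene and -0.47 after centring on the spike-ins. The lists also differed in brightness, with a median day 0 value of 9.60 for the biogenesis genes and 13.54 for the ribosomal protein genes, and the part of this in the difference between the lists was not tested. DNA replication genes had a median of -0.33, -0.63 and -0.62 over 36 genes. Among them Dut had 11.19, 10.73, 10.15 and 10.11, and Rfc5, a clamp loader subunit gene, had 10.45, 9.83, 9.12 and 9.39. With a single array per day no test of the difference between these lists was made.

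**Figure D4:**
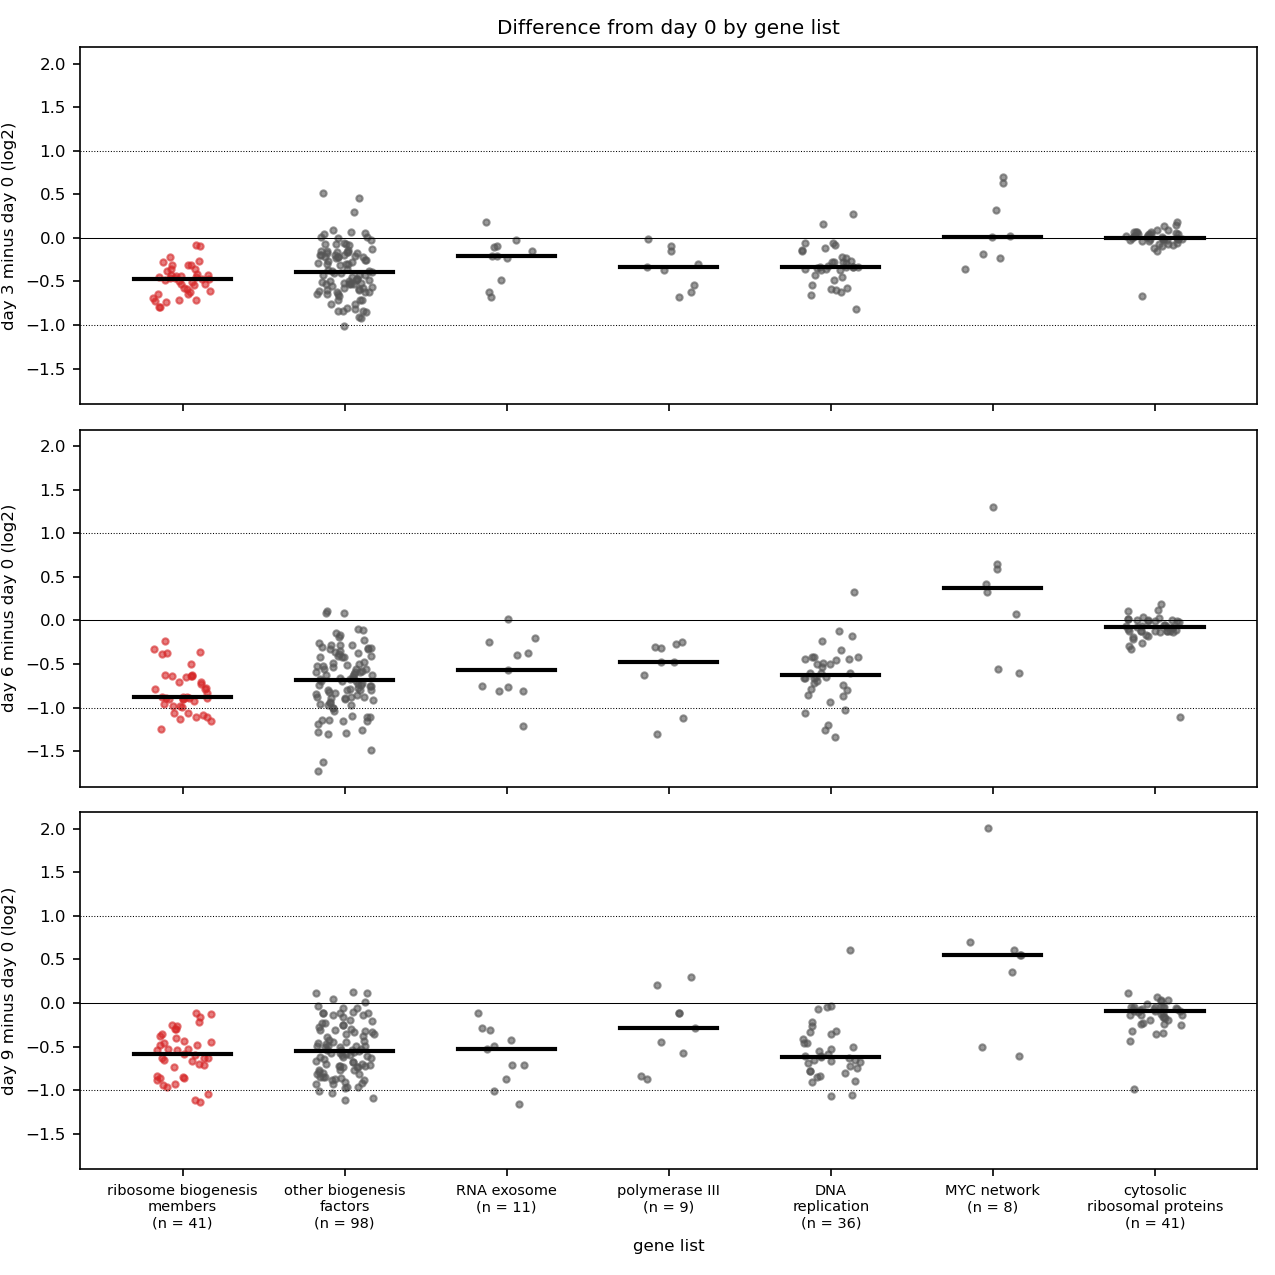
Log2 difference from day 0 (vertical axes) on days 3, 6 and 9 (panels from top to bottom) for each measured gene (points, spread sideways at random) of 7 gene lists, with the list median as a bar and 2-fold as dotted lines. The 41 biogenesis genes lie below 0 in every panel. The ribosomal proteins lie close to 0, apart from Rps13, which reached a log2 value of 6 on day 0 only. The sign of the ribosomal protein and MYC network medians changed with the scaling.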

How the data were processed

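The deposited values were made by RMA, per the submitters' processing notes. For the software that ran RMA no name is given in the sources used here. From their range, 1.55 to 14.2, the deposited values were taken as log2. The 31099 probe sets were named from the platform annotation, with 1 symbol for 20832, several for 436 and none for 9831, and 0 symbols changed after a match to RefSeq (GRCr8). Each gene was read from its brightest probe set by mean log2 value, and was measured at a log2 value of 6 or more on any array. The 4 arrays form 4 groups of 1 from the time point in the labels, so no test was run, and the number of arrays limits precision. In a simulation of day 6 minus day 0 over 8802 genes, the 2-fold rule called 46.0% of genes truly 2-fold lower and 100% of those 4-fold lower, and the 1.5-fold rule 50.0% of those 1.5-fold lower and 1.52% of unchanged genes. Noise of either sign calls near 50.0% of genes whose true change equals the threshold, whatever the size of the noise. The 46.0% and 50.0% were thus fixed in advance and say nothing about sensitivity. The simulated noise was the spread of day 9 minus day 6. Further probe sets of a gene lay a median of 0.24 from the one used in that step, but 0.41 for day 6 minus day 0. The noise may thus be too small and the rate of false calls too low. Members, lists and rules were chosen with earlier results of these data known. All 43 members are named. Of other pathway genes, those 2-fold or more from day 0 on any day were named, at most 12 by size on day 9. Max, Mxd1, Mnt, Mlxip, Ubtf, Rrn3 and the extreme ribosomal protein genes were named too. Markers of epithelial, fibroblast, endothelial, leukocyte and muscle cells were read too. Alternatives were other floors, probe set rules, scalings, thresholds and the mean over members. Python 3.11.15, numpy 2.4.6, pandas 2.3.3 and matplotlib 3.10.9 were used. Protein sequences were not analysed here.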

Additional observations from a re-analysis of the deposited data

How the results depend on the processing

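Of 115 values over the members under the alternatives, 102 kept their direction and stayed within 1.5 times of the reported value. Centring on the median gene gave 1 member 2-fold lower on day 6 and a median of -0.22 for day 6 minus day 3. Centring on the spike-ins gave 35 members lower on day 6 and 32 on day 9, a median of -1.22 for day 9 minus day 0 and -0.60 for day 6 minus day 3, and turned the median of day 9 minus day 6 to -0.041, with 19 members higher on day 9. A threshold of 1.5-fold gave 11, 35 and 21 members lower on days 3, 6 and 9, and 3-fold gave 0 on days 6 and 9. Of 981 values of single members 896 stayed within 1.5 times and 85 moved by more, 1 of which changed sign, Ddx18 on day 9. The other floors only filter genes, so they could not change the value of a single member. The rule that leaves out probe sets with a marked name kept the same probe set for each member. The 896 thus include many values that were fixed in advance and say nothing about robustness. All 41 members were lower on day 6 than on day 3 as reported, against 34 with centring on the median gene, 39 after a further quantile normalization and 38 with the mean over probe sets. The further probe sets, read alone, gave a median of -0.31 on day 6. No paired analysis was possible because each group holds 1 array.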

Other observations

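The array carries a control probe set for the rat 5S rRNA, the smallest rRNA of the large subunit and a product of polymerase III. It read 5.61, 4.97, 5.20 and 6.47 on days 0, 3, 6 and 9, highest on the last day. This RNA has no poly(A) tail and the labelling kit primes on that tail, so the reading is not a measured level of rRNA.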
